A study of Dicentrarchus labrax with 8 samples.

Results

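The genes described here are *sycp2*, *syce1*, *dmc1* and *trip13*, which act in meiotic recombination and in the synaptonemal complex. They were measured in testes of the European sea bass (*Dicentrarchus labrax*) at the onset of puberty. They are 4 of the 11705 target names on the array and 4 of the 9019 targets with a usable signal. The genes were chosen by name from the study's list of genes that differ between stage II and stage I testes, so the stage contrast itself was used to choose them. Their stage differences, and the counts of them that pass a threshold, are therefore given as a description: no p is printed for them and they support nothing.

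RNA was taken from testes of 18 males per stage, fish sampled around the time of their normal puberty and given no treatment that the labels name. The paper selected the males by histology and by their plasma level of the main fish androgen, which was higher in stage II. In stage II, the proliferative stage, germ cells had advanced to type B spermatogonia and in some fish to the first spermatocytes (type I), and in stage I, the immature stage, the germ cells described were type A spermatogonia. The RNA of 6 males was combined in each of 3 pools per stage, and each pool was labelled with Cy3 and measured on a custom one-colour oligonucleotide array. Stage II pools lay on plate P37 and stage I pools on plate P36, and both plates carried pool 3 of either stage, which gave 8 arrays. Each pool averages its fish, so the arrays did not measure the spread between single males. The paper also measured *trip13* in single fish by quantitative PCR and reports it as higher in stage II.

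Meiosis begins when germ cells leave mitotic proliferation, copy their DNA and enter a long prophase in which homologous chromosomes pair. Programmed breaks in the DNA are repaired on the homologous chromosome, while a protein ladder, the synaptonemal complex, holds the homologues together along their length. In the testis these steps take place in primary (type I) spermatocytes, which arise from type B spermatogonia. The product of *sycp2* belongs to the lateral elements of the ladder, which form along each chromosome axis, and the product of *syce1* to its central element. The product of *dmc1* is the meiosis-specific recombinase that pairs a broken DNA strand with the homologue. The product of *trip13* is an ATPase that strips HORMA-domain proteins from the chromosome axes as pairing proceeds, and that also acts in the spindle checkpoint of mitosis.

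Of the 43803 spots on each array that are not controls, the share well above background was between 60.2 and 82.9% on stage II arrays and between 75.8 and 86.7% on stage I arrays, with the lowest share in stage II pool 1. No spot was saturated. A target was called where it changed more than 2-fold and its limma adjusted p was below 0.01. Of all targets 155 were called higher and 578 lower in stage II (8.13% in all). That split depended on the scaling between arrays. It was 260 higher and 428 lower with median scaling, 207 and 328 with quantile normalisation, 47 and 91 with normexp background correction, and 729 and 77 with the unscaled log2 values deposited by the authors. The median log2 difference of all targets was -0.14 in the main analysis and 0.33 with the unscaled values.

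Stage II testes had more signal than stage I testes for all 4 genes, whichever of the 9 pairings of a stage II with a stage I pool was taken. Their log2 fold changes, stage II over stage I, lay between 1.31 for *sycp2* and 1.83 for *syce1*, with a median of 1.77 against -0.14 over all targets tested. All 4 passed both limits of a call, which 1.72% of all targets did in this direction, and in all 4 the lowest stage II pool lay above the highest stage I pool, as in 22.4% of all targets. The genes were taken from this contrast, so nothing is read from either count. In whole testes a higher share of cells that carry a transcript and more of it per cell cannot be told apart.

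Among the structural genes, *sycp2* (target cDN24P0001H06.F.ab1) had log2 signals of 2.56, 2.40 and 2.09 in stage II pools 1, 2 and 3, against 1.15, 1.01 and 0.95 in stage I pools 1, 2 and 3. Each signal is set against the 75th percentile of the spots of its array. The stages did not overlap, and pool 3 was the lowest pool within each stage. The mean signal was 2.35 ± 0.24 in stage II and 1.04 ± 0.11 in stage I (SD, n = 3 pools each), a log2 fold change of 1.31 (standard error 0.14) or 2.49-fold. It was the smallest change of the 4 genes, and 82 of the 9019 targets had a larger one. The gap between the lowest stage II pool and the highest stage I pool was 0.94 on the log2 scale.

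For *syce1* (target cDN24P0005B15.F.ab1) the log2 signals were -0.42, -0.13 and -0.77 in stage II pools 1, 2 and 3, against -2.02, -2.42 and -2.38 in stage I pools 1, 2 and 3. Pool 2 was the highest in stage II and pool 1 the highest in stage I, and the stages did not overlap. Its mean signal was -0.44 ± 0.32 in stage II and -2.27 ± 0.22 in stage I (SD, n = 3 pools each). The log2 fold change was 1.83 (standard error 0.19), or 3.56-fold. This gene had the largest SD between pools of the 4 in both stages, and its pairs of pools differed by between 1.25 and 2.29.

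The recombinase gene *dmc1* (target cDN24P0004F19.F.ab1) had log2 signals of 3.0, 2.76 and 2.49 in stage II pools 1, 2 and 3, against 1.12, 1.01 and 0.98 in stage I pools 1, 2 and 3. The stage I pools lay close together, while the stage II pools were spread over a wider range in the same order. Its mean signal was 2.75 ± 0.26 in stage II and 1.04 ± 0.08 in stage I (SD, n = 3 pools each), so that the SD was 3.34 times as large in stage II. The log2 fold change was 1.71 (standard error 0.14), or 3.28-fold, with a gap of 1.37 between the stages.

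The log2 signals of *trip13* (target cDN25P0006A09.F.ab1) were -0.82, -1.13 and -1.26 in stage II pools 1, 2 and 3, against -2.99, -2.92 and -2.78 in stage I pools 1, 2 and 3. Here pool 3 was the lowest in stage II but the highest in stage I. Its mean signal was -1.07 ± 0.23 in stage II and -2.90 ± 0.11 in stage I (SD, n = 3 pools each). The log2 fold change was 1.83 (standard error 0.13), or 3.54-fold, and the gap between the stages, 1.51, was the widest of the 4 genes.

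**Figure D1:**
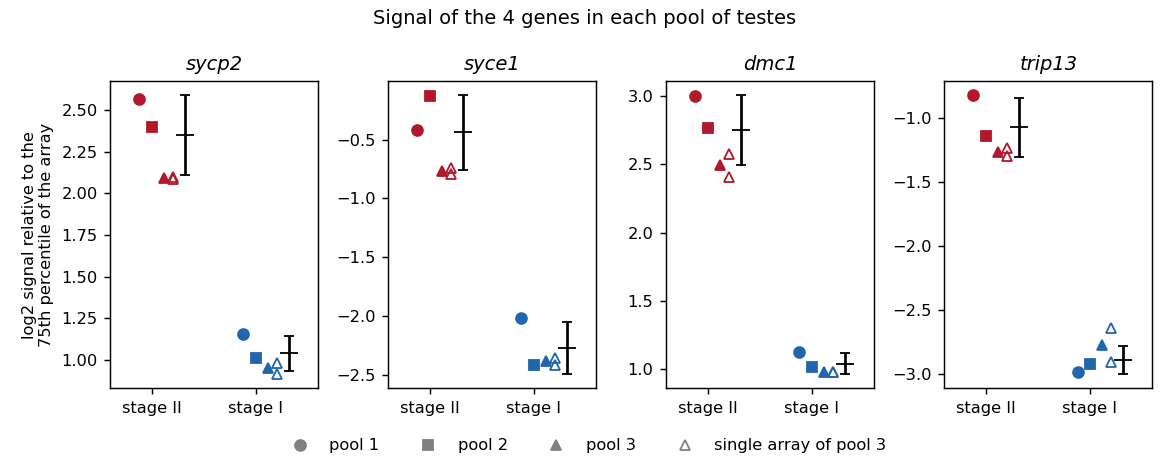
Log2 signal with the 75th percentile of each array as 0 (y axis, a separate range for each gene) of *sycp2*, *syce1*, *dmc1* and *trip13* in stage II pools (red) and stage I pools (blue), with filled symbols for pools, open triangles for the 2 single arrays of pool 3, and a black bar for the mean ± SD of 3 pools. In all 4 panels every stage II pool lies above every stage I pool, by a gap of between 0.94 (*sycp2*) and 1.51 (*trip13*).

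Before scaling, the processed intensity of *dmc1*, averaged over its spots, was 26047 in stage II pool 1, 29949 in pool 2 and 21628 and 20805 on the arrays of pool 3, against 5934 in stage I pool 1, 5499 in pool 2 and 5033 and 5906 on the arrays of pool 3. Without scaling, stage II pool 2 was thus the highest, and after scaling pool 1. Stage II pool 2 had the highest 75th percentile of all arrays (4402) and stage II pool 1 the lowest of its stage (3245), while the stage I arrays lay between 2559 and 2994. Single spots of *trip13* ranged between 1179 and 2504 in stage II and between 263 and 669 in stage I. Those of *syce1* ranged between 1368 and 6808 in stage II and between 260 and 1151 in stage I. For *sycp2* the spots lay between 11993 and 27930 in stage II and between 4037 and 6984 in stage I. Before scaling, the stage II arrays were brighter as a whole. In the unscaled deposited values the median log2 difference of all targets was 0.33. Nothing is therefore read from the distance between the spot ranges of the stages.

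Each gene was represented by 3 probes of 60 bases with 2 spots each, 24 spots per array in all. All 192 of 192 spot values over the 8 arrays were well above background, in both stages, and none was marked as an outlier. The median difference between duplicate spots was 0.04 on the log2 scale for *dmc1*, 0.05 for *trip13* and 0.06 for *sycp2* and *syce1*. The largest was 0.71, for probe 2 of *syce1* in stage I pool 1. That probe had log2 signals of -1.05, -0.84 and -1.41 in stage II pools 1, 2 and 3, against -2.56, -3.21 and -3.06 in stage I pools 1, 2 and 3, and was the only probe of *syce1* with a larger SD in stage I (0.34) than in stage II (0.29).

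All 12 probes were higher in stage II in each of the 9 pairs of pools. At the level of targets this held for 22.4% of all targets, and the share of all probes is not given here. Since this contrast chose the genes, nothing is read from the count. For *dmc1* the log2 fold changes of the 3 probes lay between 1.70 and 1.74, a range of 0.04, and 9.77% of the 4339 targets with 3 usable probes had a narrower range. The range of *trip13* was 0.09 (1.77 to 1.86) and that of *sycp2* 0.10 (1.27 to 1.38). For *syce1* it was 0.23 (1.71 to 1.94), and 79.0% of those targets had a narrower one. The median range of those targets was 0.12. The probes of *syce1* thus differed more among themselves than those of the other 3 genes, though each kept a fold change well over 2.

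**Figure D2:**
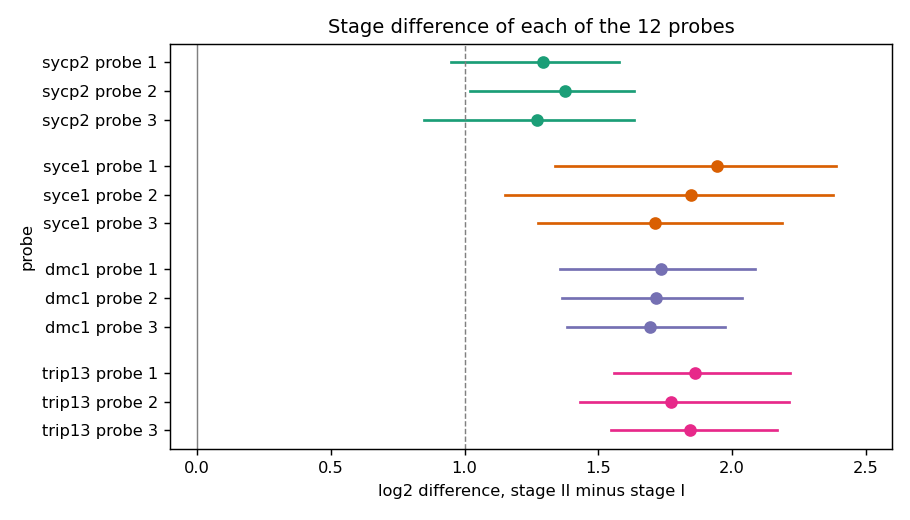
Log2 difference, stage II minus stage I (x axis), of each of the 12 probes of *sycp2*, *syce1*, *dmc1* and *trip13*, with a point for the difference of stage means and a line for the range over the 9 pairs of pools. All points lie to the right of the dashed line at a log2 difference of 1 (a fold change of 2), and the points of *dmc1*, between 1.70 and 1.74, lie closest together.

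Within stage II, pool 3 was the lowest in 4 of 4 genes, with or without scaling between arrays. The highest pool depended on the scaling. With the 75th percentile, median or quantile scaling and with normexp it was pool 1 in 3 of 4 genes, the exception being *syce1*, whereas in the unscaled processed intensities and the unscaled deposited values it was pool 2 in 4 of 4. With the 75th percentile, pool 3 was the lowest stage II pool in 26.1% of all targets tested and pool 1 the highest in 29.6%. Among the 155 targets called higher in stage II these shares were 80.6% and 83.2%.

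With the 75th percentile scaling, the signal of stage II pool 1 exceeded that of pool 3 by 0.51 on the log2 scale for *dmc1*, 0.47 for *sycp2*, 0.45 for *trip13* and 0.34 for *syce1*. The median of this difference was 0.32 over the targets called higher and -0.08 over all targets. For *syce1* pool 2 exceeded pool 3 by 0.63, while for *trip13* it did so by 0.13. With the processed intensity the SD was larger in stage II than in stage I for all 4 genes, as it was for 60.2% of all targets. This depended on the background correction. With normexp the stage I pools of *trip13* (-2.60, -2.49 and -1.55) were more spread than its stage II pools (-0.58, -0.95 and -1.06). The same held for *syce1*. Without stage II pool 1, the array with the fewest spots well above background, the stage log2 fold changes were 1.21 for *sycp2*, 1.83 for *syce1*, 1.59 for *dmc1* and 1.70 for *trip13*.

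The highest and lowest pools of *syce1* differed by 0.63 in stage II and by 0.40 in stage I, and those of *dmc1* by 0.51 in stage II and by 0.15 in stage I. For *sycp2* the range was 0.47 in stage II and 0.21 in stage I, and for *trip13* 0.45 in stage II and 0.21 in stage I. Pool 1 was the highest stage I pool for *sycp2*, *syce1* and *dmc1*, and the lowest for *trip13*.

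The repeated arrays of pool 3 compared the plates within each stage. Each plate held a single array of the pool, so the plate and array to array variation cannot be told apart here. The array on P37 minus that on P36 was -0.01 for *sycp2*, 0.05 for *syce1*, 0.17 for *dmc1* and -0.065 for *trip13* in stage II pool 3, and -0.07, 0.06, 0.00 and 0.27 for the same genes in stage I pool 3. Over all targets this difference had an SD of 0.16 in stage II pool 3 and 0.21 in stage I pool 3. The sign for *trip13* differed between the 2 pools. Its value in stage II pool 3 was smaller in size than the median absolute difference over all targets there, 0.079.

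The effect of the plate was tested with limma over 8994 targets, with terms for stage and plate and a random block for the pool. The P37 minus P36 difference was 0.13 (standard error 0.09, adjusted p = 0.813) for *trip13*, 0.10 (0.08, adjusted p = 0.844) for *dmc1*, 0.07 (0.10, adjusted p = 0.966) for *syce1* and -0.02 (0.08, adjusted p = 0.995) for *sycp2*, so 0 of the 4 were called and 0 had an unadjusted p under 0.05. Among all targets 0.0111% were called for the plate and 7.49% had an unadjusted p under 0.05. With the plate as a term the stage log2 fold changes were 1.32 for *sycp2*, 1.78 for *syce1*, 1.64 for *dmc1* and 1.73 for *trip13*.

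Within a plate, 3 pools of a stage are set against pool 3 of the opposite stage, as 1 array. On P36, with stage II pool 3 alone against the stage I pools, the log2 fold changes were 1.05 for *sycp2*, 1.49 for *syce1*, 1.37 for *dmc1* and 1.71 for *trip13*. On P37, with the stage II pools against stage I pool 3 alone, they were 1.44, 1.92, 1.80 and 1.56 for the same genes. The 4 genes were higher in stage II within each plate. For *sycp2*, *syce1* and *dmc1* the smaller value was that of P36, and for *trip13* that of P37. Stage II pool 3, used on P36, was the lowest stage II pool of all 4 genes, *trip13* included. The cause of the differences between the plates was not tested.

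Over the 6 pools, likeness was measured as the root mean square difference between profiles centred on their own mean. This measure holds the stage difference that was used to choose the genes, so the part from the stage means was set apart from the part within stages (the squares of both add up to that of the total). The total was 0.303 on the log2 scale for *sycp2* and *syce1*, of which the unequal stage differences alone gave 0.260 and the pools within stages 0.155. For *sycp2* and *dmc1* the total was 0.202, of which the stage differences gave 0.201 and the pools within stages 0.027. These totals thus mostly restate the smaller fold change of *sycp2*. Within stages, *dmc1* and *trip13* were at 0.112, *sycp2* and *trip13* at 0.133, *syce1* and *dmc1* at 0.178 and *syce1* and *trip13* at 0.258.

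The nearest targets outside the 4 genes, by the whole measure, stage difference included, were taken from 6610 targets whose probes were all well above background on every array. For *dmc1* the nearest was *kntc1*, which encodes a kinetochore protein, at 0.045. For *trip13* it was *spc25*, which encodes a subunit of the NDC80 complex of the kinetochore, at 0.056. The list of 3 for *trip13* also held *cenpf*, which encodes a centromere protein, at 0.102. For *sycp2* an unnamed target, cDN33P0004O02.F.ab1, was nearest at 0.052, followed by *lin52*, which encodes a subunit of the DREAM complex, at 0.055. For *syce1* the nearest were 2 unnamed targets at 0.149 and 0.155, then *kntc1* at 0.186. Only 84 of the 6610 targets have a symbol in the study's list, so most neighbours have no name here. That list holds genes that differ between the stages, so only such genes could be named. Nothing is therefore read from what the named neighbours encode.

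**Figure D3:**
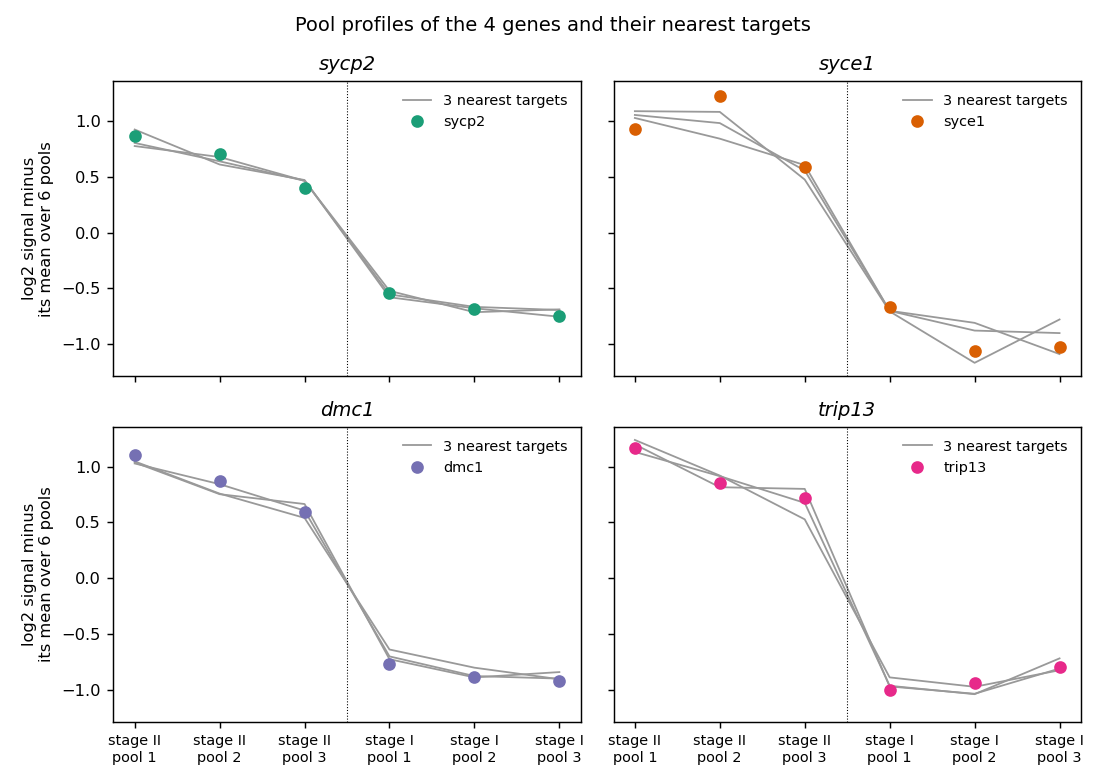
Log2 signal (75th percentile scaling) minus its mean over the 6 pools (y axis) for *sycp2*, *syce1*, *dmc1* and *trip13* (points) and the 3 targets nearest to each (grey lines), with stage II pools left of the dotted line and stage I pools right of it. The lines run through or near the points of *sycp2*, *dmc1* and *trip13*, whereas for *syce1* stage II pool 2 lies above all 3 lines.

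The genes taken here as meiosis-linked were 7 further genes picked by symbol from the study's list, so their direction is not independent evidence. They are not the paper's own meiosis pathway group, which holds other genes, among them *cenpf*, *spc25* and *mcm3*. Of the 7 genes, 6 were tested, 5 were called higher in stage II, against 1.72% of all targets, and none lower. With normexp 0 of 6 were called, though all 6 were higher in stage II. Their median was 1.21 on the log2 scale, against -0.14 over all targets. No probe of *ruvbl2*, which encodes an ATPase of chromatin remodelling complexes, passed the filter on dim probes. The largest value was 1.80 for *hsf2bp*, whose product binds BRCA2 in mouse spermatocytes. But its probes were well above background in 11 of 12 probe and array combinations in stage II and 4 of 12 in stage I, so its stage I level is near the background. The filter on dim probes could be met in 1 stage alone. Both *hsf2bp* and *nsmce2* (11 of 12 in stage I) met it at least partly through stage II, so their calls support nothing. For *ythdc2*, which mouse germ cells need to progress in meiosis, the log2 signals were 0.30, 0.02 and -0.12 in stage II pools 1, 2 and 3, against -1.22, -1.37 and -1.36 in stage I pools 1, 2 and 3. It rose by 1.39 on the log2 scale, and the stages did not overlap. The checkpoint clamp gene *rad9b* rose by 1.28, *mage* by 1.14, and *nsmce2*, which encodes a SUMO ligase of the SMC5/6 complex, by 1.12. For *mad2l1bp*, which encodes the adaptor that presents HORMA-domain proteins to the product of *trip13*, the fold change was 1.96, just under the limit of 2.

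DNA replication genes, from the same list, were 5 of 5 called higher in stage II, against 1.72% of all targets, and 3 of 5 with normexp. Their direction is not independent evidence either. The log2 fold changes lay between 1.17 and 1.51, with a median of 1.26. They were *pcna* (1.51), the sliding clamp, *fen1* (1.27), the flap endonuclease, *mcm3* (1.26), a subunit of the replicative helicase, *pold3* (1.26), a subunit of DNA polymerase delta, and *rfc3* (1.17), a subunit of the clamp loader. Stage II pool 1 exceeded pool 3 by 0.56 for *pcna*, 0.27 for *fen1*, 0.18 for *pold3*, 0.16 for *rfc3* and 0.087 for *mcm3*, where the repeated arrays of stage II pool 3 differed with an SD of 0.16 over all targets.

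The genes taken here as markers of somatic cells moved the other way. Of 6 genes, also from the study's list, 5 were called lower in stage II, as were 6.41% of all targets, and none higher. With normexp 2 of 6 were called lower, and with the unscaled deposited values 2 of 6, where all 6 were still lower in stage II. They were picked from genes that differ between the stages, so their direction is not independent evidence. The paper also reports *igfbp6*, which is not in this set, as higher in stage II on the array, though as unchanged by quantitative PCR. Because of how it was picked, the set does not stand for somatic transcripts as a class. The median of the 6 genes was -1.69 on the log2 scale. Their summed linear signal, relative to the 75th percentile, was between 1.45 and 1.64 in the stage II pools and between 4.99 and 5.20 in the stage I pools. The sum rests mostly on *mgp* and *amh*. These were the only genes of the set with a mean log2 signal above 0 in stage I (1.58 and 0.53). For *amh*, a marker of Sertoli cells, the log2 fold change was -1.19, and for the matrix gene *mgp* it was -2.03, and all probes of both were well above background on every array. The other 4 were *lox* (-2.00), *thbs1* (-1.73), *ogn* (-1.66, not called) and *igfbp5* (-1.33). The probes of *thbs1* were well above background in 1 of 12 probe and array combinations in stage II and 10 of 12 in stage I. In stage II this held for 8 of 12 for *igfbp5*, 9 of 12 for *ogn* and 10 of 12 for *lox*, against 12 of 12 for each in stage I. The filter on dim probes could be met in 1 stage alone. These 4 genes met it at least partly through stage I, where they are higher, so nothing is read from the count called lower. For all 6 genes too, fewer cells that carry a transcript and less of it per cell cannot be told apart. Whether the share of somatic RNA was lower in stage II was not tested. Nor was any part of it in the differences of *sycp2*, *syce1*, *dmc1* and *trip13*.

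**Figure D4:**
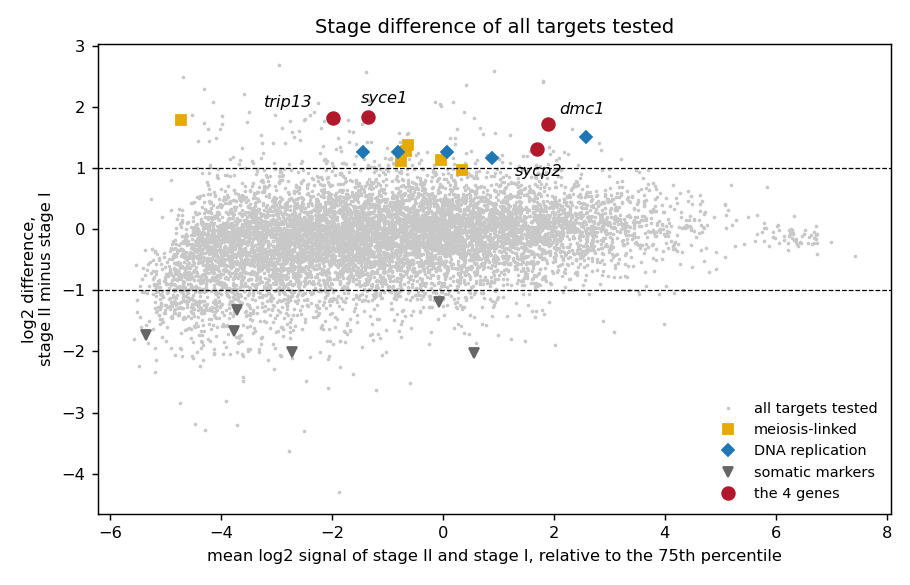
Log2 difference, stage II minus stage I (y axis), against the mean log2 signal of both stages (x axis) for all 9019 targets tested (grey), with *sycp2*, *syce1*, *dmc1* and *trip13* as red circles, meiosis-linked genes as yellow squares, DNA replication genes as blue diamonds and somatic markers as grey triangles. The red circles lie between 1.31 and 1.83, above the dashed line at 1, the somatic markers lie below the dashed line at -1, and the median of all targets is -0.14.

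The direction of the 4 genes held under each scaling between arrays and each background correction that was tried. Relative to the median of all targets, the log2 fold changes with the 75th percentile, quantile normalisation, unscaled values and normexp lay between 1.32 and 1.57 for *sycp2*, 1.67 and 2.00 for *syce1*, 1.72 and 1.93 for *dmc1* and 1.57 and 2.01 for *trip13*. The values of *syce1* and *trip13* moved most with the background correction, and stage I pool 3 moved most among their pools. With normexp, which starts from the median signal of each spot and adds an offset of 50, stage I pool 3 was at -1.55 for *trip13*, against -2.60 in stage I pool 1 and -2.49 in stage I pool 2, whereas with the processed intensity the 3 stage I pools lay between -2.99 and -2.78. Both arrays of that pool were raised, at -1.76 on P36 and -1.34 on P37.

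For *syce1* the normexp signal of stage I pool 3 was -1.44, against -1.91 and -2.19 in stage I pools 1 and 2. The log2 fold changes with normexp were 1.45 for *syce1* and 1.35 for *trip13*, and neither was called, while *sycp2* (1.35) and *dmc1* (1.71) were. Under normexp all 4 genes had stage II pools above every stage I pool. The share of all targets for which this held under normexp is not given here. The genes were taken from this contrast, so nothing is read from the count.

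**Figure D5:**
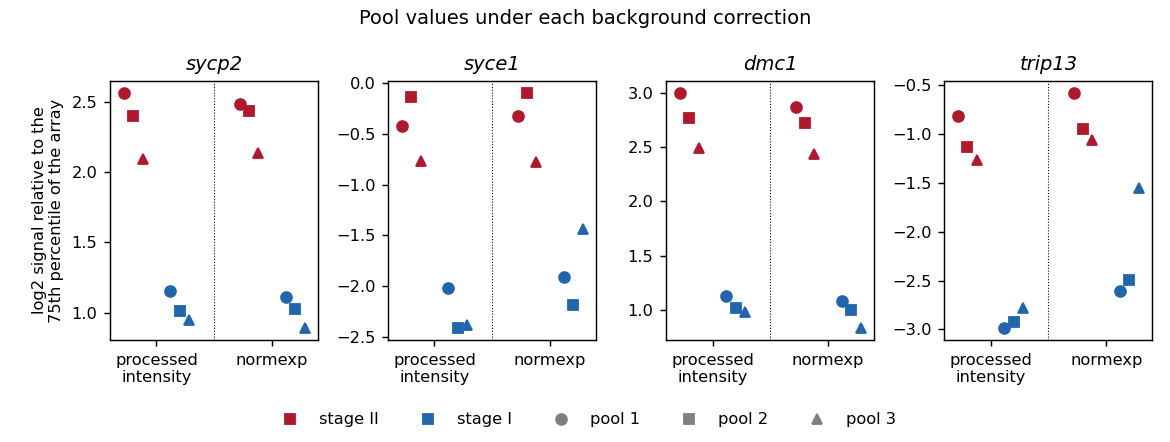
Log2 signal with the 75th percentile of each array as 0 (y axis, a separate range for each gene) in stage II pools (red) and stage I pools (blue), from the processed intensity (left of the dotted line) and after normexp correction of the median signal (right), with circles, squares and triangles for pools 1, 2 and 3. Stage I pool 3 (blue triangle) stands above the other stage I pools after normexp for *trip13* (-1.55) and *syce1* (-1.44), and not for *sycp2* or *dmc1*.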

How the data were processed

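Per the file headers, the scanner files deposited by the authors hold spot intensity values from Agilent Feature Extraction 10.7.3.1 (the submitters' processing notes name version 10.4), background-subtracted and detrended within each array. The authors also deposited log2 values of the same spots, not scaled between arrays, which served as an alternative.

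On the log2 scale, the 75th percentile of the non-control spots was subtracted from the intensity values of each array, after the study's methods. Outlier spots were left out, and each probe took the mean of its spots. The filter on dim probes asked that, on all arrays of 1 or both stages, at least 0.5 of a probe's spots be well above background (18278 of 24200 probes). The probes of a target were averaged, as were the arrays of pool 3, and 14 groups of targets that the study's list joins were merged. The 9019 targets with a value in all 6 pools were fitted in R 4.3.3 with limma 3.58.1 (lmFit, then eBayes), stage being the only term, with Benjamini-Hochberg adjustment. The plate was fitted with duplicateCorrelation (correlation 0.779) over 8994 targets. The steps were tested on simulated data with known changes.

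Targets were named by symbol through the study's list of genes that differ between the stages, and here the identity of each gene rests on that annotation. The paper also cloned and sequenced the transcripts it chose for quantitative PCR, *trip13*, *pcna*, *amh*, *spc25* and *cenpf* among them. The supplied RefSeq table matched 0 target names, and no probe or gene sequence was used here. The members and lists were chosen with earlier results of these data known. The genes named are the 4 members, every gene of the meiosis-linked, DNA replication and somatic lists, and the 3 targets with the profiles nearest to each member, with at most 2 unnamed targets printed. The pools are replicates of separate fish, but pooling hides the spread between fish, and the number of arrays limits the precision. Alternatives covered the background correction, the scaling, the filter on dim probes, single probes, the use of the repeated arrays, the plate, other tests, the pool number as a block, and the omission of each pool in turn. The order of the stage II pools under each scaling and the split of the likeness measure were added after seeing the data.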

Additional observations from a re-analysis of the deposited data

How the results depend on the processing

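All 4 genes were higher in stage II under every alternative run; since this contrast chose them, this and the counts of them called describe the settings and are no sign of stability. Leaving out 1 pool at a time gave log2 fold changes of 1.21 to 1.44 for *sycp2*, 1.68 to 2.00 for *syce1*, 1.59 to 1.85 for *dmc1* and 1.70 to 1.92 for *trip13*, with 4 genes called each time and 268 (without stage I pool 2) to 916 targets called over the whole table, against 733 with all pools and 385 without stage I pool 1. With a replicate block for the pool number 4 genes and 503 targets were called. Deviations of equally numbered pools had correlations of -0.00, -0.00 and -0.06. Those of unequally numbered pools lay between -0.09 and 0.11, so these values cannot show whether equal numbers share a step. By design the pools hold different fish, divided at random within each stage. The deposited log2 values without scaling gave 1.80 for *sycp2*, 2.33 for *syce1*, 2.17 for *dmc1* and 2.32 for *trip13*, and scaled to the 75th percentile 474 targets called. Normexp gave 1.45 for *syce1* and 1.35 for *trip13*, with 2 genes (*sycp2* and *dmc1*) and 138 targets called, and 0 of 6 meiosis-linked, 3 of 5 replication and 2 of 6 somatic genes called. No filter on dim probes gave 456 targets and the strictest filter 433. Within P36 the log2 fold change was 1.05 for *sycp2*, 1.49 for *syce1* and 1.37 for *dmc1*, and within P37 1.56 for *trip13*. The plate difference of *trip13* was -0.065 in stage II pool 3 alone, against 0.13 in the fit; the cause was not tested.

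A t-test with equal variances and a fold change over 2 called all 4 genes and 604 targets at an unadjusted p under 0.01. After Benjamini-Hochberg adjustment it called 1 gene (*trip13*) and 83 targets. The study's methods name a t-test at 0.01 without saying whether p was adjusted. Its additional tables list adjusted p-values. Limma's treat, which tests for more than a fold change of 2, called 0 genes and 0 targets, with 4 genes and 319 targets at an unadjusted p under 0.05. Under quantile normalisation 9 of the 12 nearest targets were the same. The use of 3 pools per stage limits how far these values can be separated, and for *syce1* and *trip13* so does the background correction.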
